A study of Mus musculus with 31 samples.

Results

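Cohesin occupancy was compared between resting splenic B cells of the mouse and CH12F3, a mouse B lymphoma line, by chromatin immunoprecipitation and sequencing (ChIP-seq) of Rad21, a subunit of the cohesin ring. The 6 Rad21 libraries labelled as unstimulated were used, 3 from resting spleen and 3 from unstimulated CH12F3, out of 31 samples in the series. The splenic cells were labelled as primary mature B cells from C57BL/6 mice and the CH12F3 cells as lymphoma cells kept in culture, and both were described as deficient in AID, which deaminates DNA to begin antibody class switching. The titles write the line as CH12F3NCdel, a name not explained in the labels. Neither group had been stimulated. Libraries outside the comparison served as a second reading: Rad21 in spleen cells given an antibody to CD40 plus IL-4 for 48 h (n = 3), Rad21 in CH12F3 given the same plus TGFb for 24 h (n = 4), Rad21 in cells titled i3CBEs, whose source is labelled CH12F3, under that 24 h treatment (n = 3), and NIPBL, the cohesin loader, in the same kinds of cell. The labels do not say whether replicates were separate animals or cultures, so the spread between replicates may be technical.

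Cohesin is a ring-shaped complex that NIPBL loads onto DNA and that reels chromatin into loops until it meets a barrier, most often the DNA-binding protein CTCF. Rad21 ChIP-seq therefore marks CTCF-bound loop anchors as narrow peaks, and it can also spread as broad enrichment over highly active genes and enhancers in lymphocytes. At antigen receptor loci these loops bring distant gene segments together for recombination, and the study's design text puts loop extrusion in class switching at the heavy-chain locus at its centre.

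The 3 resting spleen lists held 292077, 1177388 and 152151 peaks on the 21 main chromosomes, against 101404, 119444 and 191699 in the 3 CH12F3 lists. The 20000 peaks with the highest -log10 p of each list, called top peaks here, covered 15.5, 15.2 and 8.97 Mb in spleen and 9.76, 8.56 and 11.2 Mb in CH12F3. Spleen replicate 3 had the weakest list, with a -log10 p of 6.37 at its last top peak where the other 5 lists stood between 9.77 and 14.6. None of 7 measures of list size, width or strength separated the groups (two-sided exact permutation test, adjusted p of 0.7 or more; the smallest p that 3 against 3 allows is 0.1). All 3 spleen lists name one control library in their peak names and all 3 CH12F3 lists name another, so cell type and control cannot be told apart. The lists carry no read counts, and depth is unknown. On the Y chromosome lay 0.02%, 0.045% and 0.02% of the top peaks in spleen and 0.005%, or 1 peak, in each CH12F3 list. The titles and sources of the CH12F3 libraries were followed, although their cell type field reads splenic B cells.

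The strongest Rad21 peaks were mostly held in common and the weaker ones less often. Of the spleen top peaks, 80.4 ± 3.58% overlapped a top peak of another spleen list (SD over 6 ordered pairs), and 66.4 ± 2.86% overlapped one of a CH12F3 list (9 pairs). Of the CH12F3 top peaks, 89.6 ± 1.66% were met in another CH12F3 list and 66.5 ± 3.19% in a spleen list. Among the first 4000 ranks, 97.0 ± 0.195% of spleen peaks were met in CH12F3 and 91.1 ± 1.43% of CH12F3 peaks in spleen. Among the last 4000 ranks these shares were 31.5 ± 3.52% and 40.3 ± 3.71%. Agreement within a cell type also declined over these last ranks, to 44.1 ± 4.78% between spleen lists and 61.1 ± 3.64% between CH12F3 lists. The decline with rank therefore holds both between and within cell types, and pairs that share a library are not independent.

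**Figure D1:**
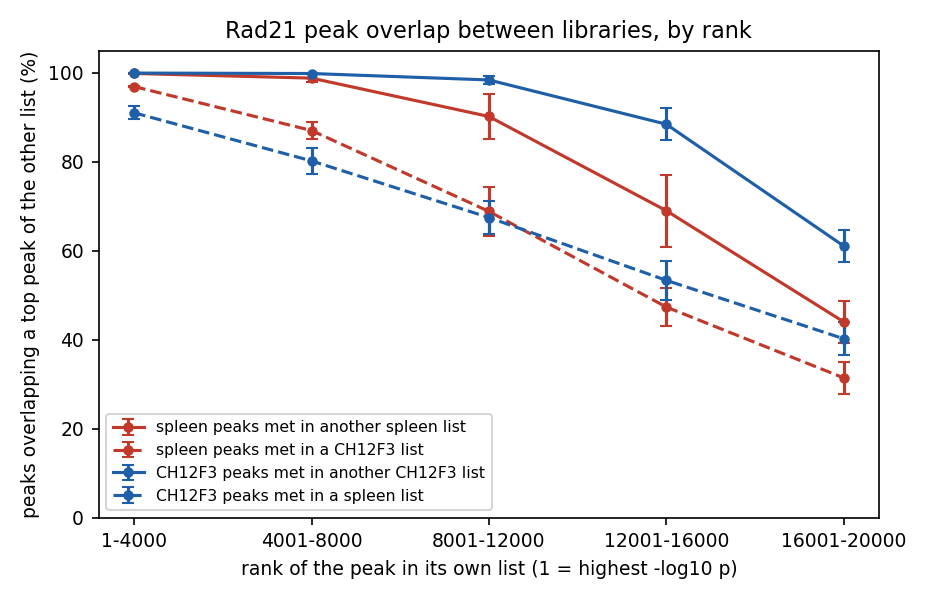
Percent of Rad21 top peaks (y axis) that overlap a top peak of another library by 1 or more bases, by the peak's rank in its own list in steps of 4000 (x axis); points are means and bars SDs over ordered pairs of libraries (6 within a cell type, 9 between). Between cell types the share falls from over 90% in the first step to 31.5% for spleen peaks and 40.3% for CH12F3 peaks in the last.

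The genome was next cut at every 10 kb, and each bin was scored by the percent of its bases under a library's top peaks. Of 24197 bins covered in 2 or more of the 6 libraries, 2422 (10.0%) were higher in resting spleen than in CH12F3 and 3332 (13.8%) were lower (limma, Benjamini-Hochberg adjusted p under 0.05). The groups did not overlap in any called bin. In most of them 1 group lay at 0 in every library: CH12F3 in 1955 of the higher bins and spleen in 2890 of the lower. Such bins passed the filter only through the covered group. The group at 0 had no spread, and limma pools the spread of both groups, so adjusted p there can be too small. Bins higher in spleen differed by a median of 7.43 points and bins lower in spleen by a median of -3.74 points, against 0.63 points over all bins tested. A difference of 20 points or more was reached by 255 bins higher in spleen and by 12 bins lower in spleen. The balance of the calls changed with the processing. With lists trimmed to an equal covered length, 928 bins were higher and 3896 lower in spleen, with peaks set to 500 bases about their midpoints 2046 and 3282, and without spleen replicate 3 5534 were higher and 3199 lower. With all deposited peaks 2261 were higher and 194 lower, of which 343 and 17 were also called with the top peaks. Array weights gave 4786 higher and all Rad21 groups in 1 fit 4467 higher, and leaving out CH12F3 replicates 1, 2 or 3 gave 1126, 1279 or 1143 higher bins. Restricting the lists to a -log10 q of at least 5 left 0 bins called by limma, so that every bin named in the text lost its call there (7621 bins had an unadjusted p under 0.05).

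Absence from the top peaks was often not absence from the list. No CH12F3 top peak touched 1955 of the 2422 bins higher in spleen, and 1939 of the 2422 held some deposited peak in every CH12F3 list. No spleen top peak touched 2890 of the 3332 bins lower in spleen, and 2224 of the 3332 held some deposited peak in every spleen list. Both kinds of count are over all called bins and were not crossed with each other. With all deposited peaks, 1578 bins were still higher in every spleen library than in any CH12F3 library and 861 were still lower. Deposited peaks are widespread: they covered 191247 of the 264200 bins of the genome in 2 or more of the 6 libraries. The shares of all bins that meet these rules were not counted, so whether the counts are particular to the called bins cannot be said. Called bins mostly stood alone. There were 221 runs of 2 or more neighbouring bins higher in spleen, holding 475 bins, and 199 such runs lower in spleen, holding 407. The longest spleen-higher runs had 6 bins, at chr11:87230001-87290000 and chr8:129350001-129410000 (mm9). The chromosome 8 run was covered to 20.5%, 29.5% and 18.2% in spleen and to 2.17%, 2.80% and 4.95% in CH12F3.

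The bin with the largest difference in favour of spleen was chr10:96080001-96090000, which by general knowledge of mm9 holds the start of Btg1, an antiproliferative gene that is highly active in resting lymphocytes. Gene positions here come from general knowledge of mm9 and were not checked against an annotation of that build. Top peaks covered 93.5%, 96.0% and 88.9% of this bin in spleen, against 8.12%, 6.56% and 10.7% in CH12F3. The groups were far apart, by 84.3 ± 7.99 points (limma estimate ± SE, adjusted p = 0.0066). In spleen most of the cover came from 1 long peak in each list, of 9347, 9805 and 8793 bases, beside a second top peak in replicate 3. In CH12F3 it came from a peak of 812, 656 and 1068 bases that lay inside the same stretch, from 96080838 to 96081649 in replicate 1 against 96080363 to 96089709 in spleen replicate 1. Both groups thus had Rad21 at this locus, and the extent of the peak differed. The peaks stood low in their lists in both groups. The best ranks in the bin were 18822, 19321 and 11561 in spleen and 15238, 13681 and 19767 in CH12F3. With 10000 top peaks the bin therefore held no peak and was not tested. The size of the difference depended on the processing: with an equal covered length it was 24.7 points (limma, adjusted p = 0.48), with peaks of -log10 q of 5 or more 55.7 points (adjusted p = 0.21), and with peaks reduced to 500 bases about their midpoints 0.

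The MHC class II cluster on chromosome 17 held 2 of the 12 bins with the largest spleen-higher differences. MHC class II genes encode the proteins with which B cells present peptides to helper T cells. The bin chr17:34430001-34440000 was covered to 56.9%, 72.6% and 57.3% in spleen and to 0% in all 3 CH12F3 lists, a difference of 62.3 ± 8.38 points (limma, adjusted p = 0.0066). The bin chr17:34400001-34410000, close to H2-Ab1, was covered to 49.1%, 46.3% and 69.9% in spleen and to 0%, 0% and 7.29% in CH12F3 (52.7 ± 9.10 points, limma, adjusted p = 0.0081). Every spleen value stood above every CH12F3 value in both bins. With all deposited peaks the first of these bins was covered to 79.2%, 76.0% and 59.1% in spleen and to 27.7%, 30.6% and 25.3% in CH12F3, and the call was lost (limma, adjusted p = 0.052). Its difference was also no longer called with 10000 top peaks, at 23.4 points (limma, adjusted p = 0.092), or with an equal covered length, at 32.9 points (limma, adjusted p = 0.062). The H2-Ab1 bin lost its call with 500 bases about the midpoint (8.33 points, limma, adjusted p = 0.24). With 10000 top peaks and with an equal covered length it was covered in too few libraries to be tested. Over the whole cluster, chr17:34180001-34500000, top peaks covered 14.4 ± 1.08% in spleen and 2.65 ± 0.27% in CH12F3 (n = 3 each), and 7 of 21 tested bins were called higher in spleen and 0 lower.

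The spleen-higher bins ranked 1 and 3 by difference lay at Btg1 and, by general knowledge, between H2-Aa and H2-Eb1. Whether the class II bin holds either promoter was not checked. The RefSeq (GRCm38.p6) promoters of Btg1, H2-Aa and H2-Eb1 are shown. Each is 250 bases before to 50 bases after the gene's start, 5′ to 3′ on the gene's strand, with the letters CCAAT (either strand) in capitals.
Btg1: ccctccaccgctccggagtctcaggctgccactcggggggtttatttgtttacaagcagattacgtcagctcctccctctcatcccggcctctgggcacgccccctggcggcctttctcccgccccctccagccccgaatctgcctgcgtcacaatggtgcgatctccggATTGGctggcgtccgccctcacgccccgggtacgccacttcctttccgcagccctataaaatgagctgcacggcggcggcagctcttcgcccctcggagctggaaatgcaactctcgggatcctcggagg
H2-Aa: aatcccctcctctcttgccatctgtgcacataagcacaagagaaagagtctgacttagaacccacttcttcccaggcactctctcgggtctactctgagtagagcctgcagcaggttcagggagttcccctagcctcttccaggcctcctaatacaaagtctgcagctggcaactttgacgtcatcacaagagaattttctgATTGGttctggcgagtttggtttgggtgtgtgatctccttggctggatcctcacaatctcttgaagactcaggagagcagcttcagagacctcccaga
H2-Eb1: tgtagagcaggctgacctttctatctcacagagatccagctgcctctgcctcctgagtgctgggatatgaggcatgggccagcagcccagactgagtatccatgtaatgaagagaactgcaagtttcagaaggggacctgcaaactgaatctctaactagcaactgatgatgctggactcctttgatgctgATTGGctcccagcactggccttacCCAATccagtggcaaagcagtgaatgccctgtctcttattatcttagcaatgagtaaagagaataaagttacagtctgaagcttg
CCAAT, the core of the box bound by NF-Y and part of the class II promoter module, occurred in 37.4% of 32851 RefSeq promoters of this length on either strand. The Btg1 and H2-Aa windows held 1 match each and the H2-Eb1 window 2. These matches describe the letters and no binding, and no sequence of mm9 was used.

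The bin chr11:87560001-87570000, just before the gene of miR-142 by general knowledge, was covered to 68.4%, 70.8% and 46.4% in spleen and to 0% in each CH12F3 list (61.8 ± 9.49 points, limma, adjusted p = 0.0066). miR-142 is a microRNA of blood cells, and its mature strands from RefSeq (GRCm38.p6) are shown with the seed, bases 2 to 8, in capitals.
mmu-miR-142a-5p: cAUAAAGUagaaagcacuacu
mmu-miR-142a-3p: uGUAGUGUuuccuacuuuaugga
CH12F3 had peaks of lower rank here: all deposited peaks covered 82.3%, 85.9% and 53.0% of the bin in spleen and 60.7%, 56.0% and 72.3% in CH12F3, so that the groups overlapped. NIPBL top peaks covered it to between 40.3% and 67.5% in resting spleen and to 59.4% and 33.5% in the 2 unstimulated CH12F3 libraries. The neighbouring bins chr9:44370001-44380000 and chr9:44380001-44390000 lie near Cxcr5, the receptor that guides B cells into follicles, again by general knowledge. The first was covered to 64.5%, 62.5% and 38.4% in spleen and to 0% in each CH12F3 list (55.1 ± 9.17 points, limma, adjusted p = 0.0073). With all deposited peaks this call was lost (43.5 points, limma, adjusted p = 0.063). NIPBL top peaks were present there in resting spleen, at 22.5%, 13.5% and 15.1%, and had no top peak in unstimulated CH12F3.

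Over the 12 spleen-higher bins named by size, the widest top peak in a bin had a median length of 5686, 5102 and 2207 bases in spleen, and only 2, 5 and 4 of the 12 bins held any CH12F3 top peak. Deposited CH12F3 peaks of lower rank were present in 11 of the 12 in every CH12F3 list. The exception was chrY:2780001-2790000, covered to 82.5%, 95.1% and 24.3% in spleen and 0% in CH12F3, whose call was lost on leaving out 1 library, for 5 of the 6 libraries. The other bins were chr6:48650001-48660000, chr17:5800001-5810000, chr13:112790001-112800000, chr6:129180001-129190000 and chr10:95830001-95840000, with differences of 48.5 to 53.2 points (limma, adjusted p between 0.0066 and 0.0341). The calls at chr6:48650001, chr6:129180001 and chr10:95830001 were each lost without any 1 of CH12F3 replicates 1, 2 or 3 or spleen replicate 2 (limma, adjusted p between 0.052 and 0.115).

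Of the 12 bins with the largest spleen-lower differences, 7 lay in chr1:85070001-85330000. Within chr1:85000001-85400000, 8 of 16 tested bins were lower in spleen and 0 higher, and top peaks covered 6.39%, 8.18% and 6.18% of the 40 bins in spleen against 16.0%, 30.3% and 20.0% in CH12F3. At chr1:85310001-85320000 cover was 2.58%, 2.42% and 2.72% in spleen and 65.2%, 64.1% and 64.9% in CH12F3 (-62.2 ± 7.86 points, limma, adjusted p = 0.0066). The widest CH12F3 top peak over this bin was between 9861 and 14719 bases long. Deposited peaks also covered 52.1%, 75.2% and 34.9% of that bin in spleen, against 90.9%, 89.9% and 83.9% in CH12F3. With 500 bases about each midpoint the difference turned to 0.20 points in this bin and also changed sign in 4 others of the cluster. At chr1:85240001, with the largest spleen-lower difference, the best ranks were 27, 53 and 32 in spleen and 1638, 8934 and 3275 in CH12F3. At chr1:85280001 they were 23, 209 and 51 in spleen and 533, 9549 and 5681 in CH12F3. At no other named bin of the cluster did every spleen list rank better than every CH12F3 list. The call at chr1:85240001 was lost on leaving out any 1 library except CH12F3 replicate 1 (limma, adjusted p between 0.074 and 0.141). Regions prone to artefacts were not removed from the lists.

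The remaining spleen-lower bins were scattered. The bin chr15:62630001-62640000, in the gene-poor flank of Myc, was covered to 4.01%, 0% and 0% in spleen and to 33.3%, 41.5% and 44.0% in CH12F3 (-38.2 ± 5.10 points, limma, adjusted p = 0.0066). The bin chr8:125950001-125960000 had almost no cover in spleen at any rank. Top peaks covered 0% of it in each spleen list and 35.5%, 24.0% and 25.9% in CH12F3 (-28.4 ± 3.82 points, limma, adjusted p = 0.0066), and all deposited peaks covered it to 0.51%, 2.65% and 1.33% in spleen and to 47.0%, 39.8% and 52.0% in CH12F3. NIPBL had no top peak there in the 3 resting or the 3 stimulated spleen libraries and covered 68.7% and 59.4% in unstimulated CH12F3. The other 3 bins were chr1:87390001-87400000, chr14:115410001-115420000 and chr11:121820001-121830000.

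Windows over 19 loci, placed from general knowledge of mm9, were compared next: antigen receptor loci, MHC class II, B cell genes, Myc, Hox clusters, protocadherins and the H19-Igf2 domain. In 8 windows every spleen library had more cover than every CH12F3 library, in 4 every one had less, and in 7 the groups overlapped. Over all 10 kb bins the groups did not overlap in 18.0% of bins higher and 18.4% lower in spleen, and over 1 Mb windows in 25.1% and 17.7%. The locus windows span 4 to 327 bins, so neither share is a background of the same size. No window could pass the test at this size (two-sided exact permutation test over 19 windows, smallest adjusted p = 0.158). Within the windows, 52 of 223 tested bins were called, 29 higher and 23 lower in spleen, which is close to the 23.8% called over the whole genome.

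**Figure D2:**
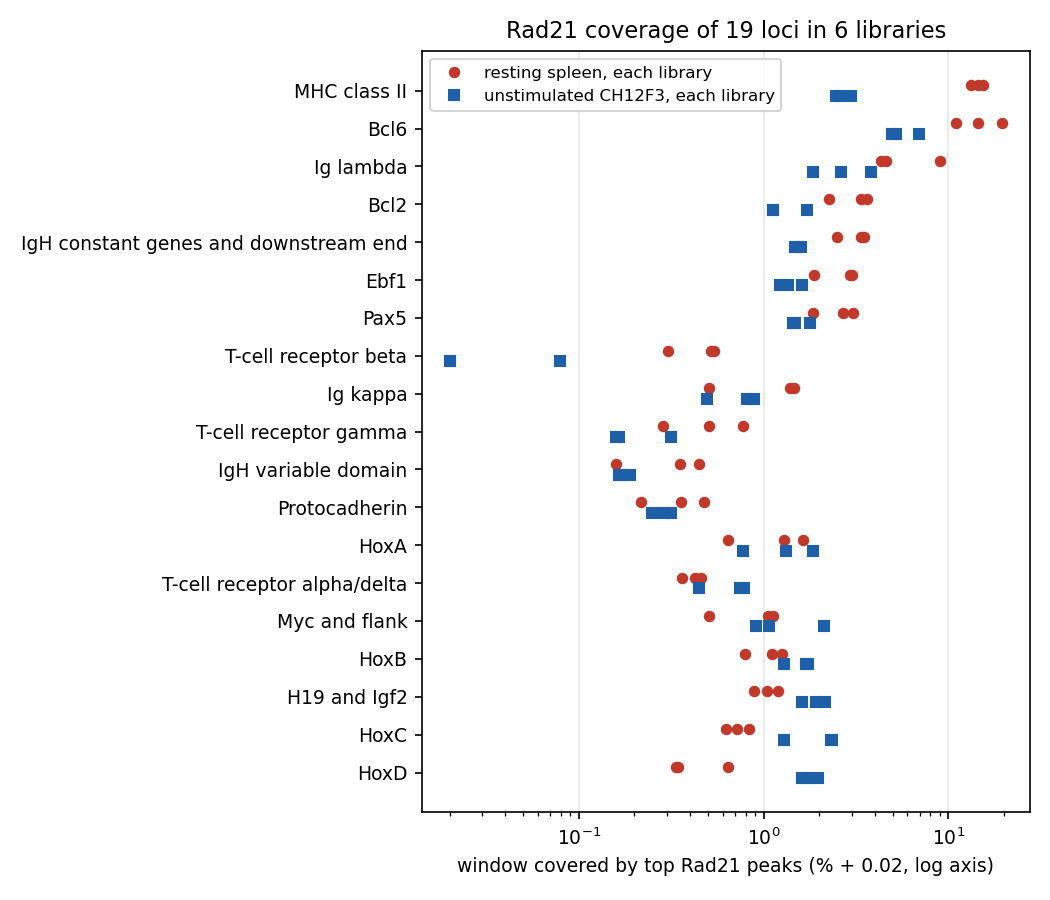
Percent of each of 19 locus windows covered by top Rad21 peaks (x axis, log scale after adding 0.02), one point per library, resting spleen (circles) above unstimulated CH12F3 (squares) in each row; rows are ordered by the difference of the means. The MHC class II window is widest apart in percent covered, at 14.4% in spleen and 2.65% in CH12F3, and the HoxD window stands lowest, with 0.42% in spleen and 1.76% in CH12F3.

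Among immunoglobulin loci, the window of the heavy-chain constant genes, the substrate of class switching, was covered to 3.46%, 3.36% and 2.49% in spleen and to 1.58%, 1.45% and 1.48% in CH12F3. The groups did not overlap, and 3 of its 9 tested bins were called higher in spleen. They were chr12:114350001-114360000 (4.61 ± 1.20 points, limma, adjusted p = 0.034), chr12:114420001-114430000 (5.53 ± 0.99 points, limma, adjusted p = 0.0088) and chr12:114490001-114500000 (10.2 ± 2.86 points, limma, adjusted p = 0.045), and none had a CH12F3 top peak. With all deposited peaks only chr12:114420001-114430000 of the 3 was still higher in every spleen library, at 6.92%, 8.57% and 3.66% against 0% in each CH12F3 list. In the variable domain, where V segments lie between many CTCF sites, 4 of 25 tested bins were called higher in spleen and 1 lower. By top peaks the window as a whole overlapped between the groups. With all deposited peaks the window was higher in every spleen library, and the 4 bins were still at 0% in each CH12F3 list. The lower bin, chr12:116430001-116440000, then overlapped between the groups. Kappa had 1 bin in each direction of 61 tested. The lambda window was covered to 8.99%, 4.58% and 4.32% in spleen and to 2.62%, 1.84% and 3.81% in CH12F3, with no called bin.

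T-cell receptor loci are not rearranged for expression in B cells. The beta window had 0.52%, 0.50% and 0.29% cover in spleen and 0%, 0.059% and 0% in CH12F3, and 3 of its 6 tested bins were called higher in spleen. One of them, chr6:40840001-40850000, had 7.66%, 6.64% and 5.12% in spleen and 0%, 1.95% and 0% in CH12F3. In the alpha/delta window 4 of 13 tested bins were lower in spleen and 0 higher, on chromosome 14, where 24.98% of all tested bins were lower. All 4 had no spleen top peak, and chr14:54420001-54430000 reached 6.60%, 8.20% and 6.55% in CH12F3 (-7.12 ± 0.86 points, limma, adjusted p = 0.0066). All deposited peaks covered that bin to 5.66%, 9.31% and 0.51% in spleen and to 6.60%, 8.20% and 6.55% in CH12F3, so that the groups overlapped. In the gamma window 1 of 2 tested bins was called higher in spleen.

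Windows over 4 genes of B cell identity and survival were read singly. Ebf1, a factor that specifies the B lineage, had 2 called bins of 8, both at 0% in CH12F3. The bin chr11:44760001-44770000 was covered to 27.6%, 24.2% and 18.3% in spleen (23.3 ± 2.94 points, limma, adjusted p = 0.0066). Bcl6, a repressor needed in germinal centres, had 19.6%, 14.5% and 11.0% cover of its window in spleen and 5.18%, 4.97% and 6.97% in CH12F3. Bcl2, which protects cells from apoptosis, had 2 called bins, and the larger, chr1:108440001-108450000, was covered to 38.3%, 22.0% and 19.7% in spleen and to 6.11%, 5.23% and 6.53% in CH12F3. The window of Pax5, the factor that maintains B cell identity, was higher in every spleen library while its 1 called bin, chr4:44570001-44580000, was lower in spleen, at 0%, 0% and 1.72% against 6.19%, 5.76% and 5.48% in CH12F3. The window differences of Ebf1 and Pax5 changed sign with 10000 top peaks and with an equal covered length.

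The flank of Myc, a growth-promoting transcription factor, held called bins in both directions. Of 27 tested bins, 3 were called higher and 6 lower in spleen. The bin chr15:62000001-62010000 had 37.9%, 43.8% and 24.6% in spleen and 0% in each CH12F3 list (35.4 ± 5.67 points, limma, adjusted p = 0.0069), beside the spleen-lower bin at 62630001 given above. All deposited peaks covered the first of these to 54.2%, 54.5% and 26.6% in spleen and to 34.4%, 41.3% and 39.1% in CH12F3, so that the groups overlapped. Over the whole window the groups overlapped, with 1.11%, 1.03% and 0.49% in spleen and 0.89%, 2.12% and 1.05% in CH12F3.

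Hox clusters and the imprinted H19-Igf2 domain, known for CTCF sites that divide active from silent chromatin, had less cover in spleen. HoxD had 0.62%, 0.32% and 0.33% in spleen and 1.75%, 1.59% and 1.94% in CH12F3, and 3 of 5 tested bins were called lower in spleen. At chr2:74550001-74560000 cover was 0%, 0% and 1.01% in spleen and 9.29%, 7.83% and 9.19% in CH12F3 (-8.43 ± 0.98 points, limma, adjusted p = 0.0066). HoxC had 2 of 4 tested bins lower in spleen, and HoxB had 4 of 9 lower and 1 higher. HoxA overlapped between the groups and had no called bin. In the H19-Igf2 window, 1 of 4 tested bins was lower in spleen. With all deposited peaks none of the 4 windows lower in spleen kept groups apart, and HoxB and H19-Igf2 changed sign.

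Windows of 1 Mb showed where neighbouring sites moved together. Of 2150 windows tested, 390 (18.1%) were higher and 254 (11.8%) lower in spleen (limma, adjusted p under 0.05), and the groups did not overlap in 25.1% higher and 17.7% lower. The largest difference was at chr17:34000001-35000000, around MHC class II, with 6.67%, 6.49% and 5.98% cover in spleen and 1.67%, 1.49% and 1.79% in CH12F3 (4.73 ± 1.14 points, limma, adjusted p = 0.0086). At chr13:112000001-113000000 spleen lists had 23, 23 and 27 top peaks and CH12F3 lists 5, 11 and 6. Next came chr9:44000001-45000000, chrY:2000001-3000000 and chr11:87000001-88000000. The 5 windows named for lower cover in spleen were chr15:102000001-103000000, chr16:18000001-19000000, chr14:34000001-35000000, chr16:3000001-4000000 and chr1:137000001-138000000, with differences of -0.93 to -0.74 points. In the chromosome 14 window there were 3, 4 and 4 top peaks in spleen and 17, 20 and 22 in CH12F3. With peaks set to 500 bases 414 windows were higher and 570 lower, with an equal covered length 357 and 560, and with all deposited peaks 0 and 0 by limma (148 at an unadjusted p under 0.05). Without spleen replicate 3 971 windows were higher, and without any 1 of the other 5 libraries 170 to 252.

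Chromosome 14 as a whole carried fewer of the top peaks in spleen. Its share was 3.37%, 3.36% and 3.33% in spleen and 4.71%, 4.76% and 4.73% in CH12F3. The difference was -1.38 points, with SDs of 0.022 and 0.025, and the adjusted p was 0.15 (two-sided exact permutation test over 21 chromosomes; the smallest p that 3 against 3 allows is 0.1). Stimulated libraries outside the comparison gave 3.55% to 3.84% in spleen, 4.65% to 4.89% in CH12F3 and 4.92% to 5.06% in i3CBEs. NIPBL top peaks gave 3.48% to 3.99% in resting spleen and 5.31% and 5.85% in unstimulated CH12F3. The difference did not run over the whole chromosome. In the first 25 Mb the lists held 91, 89 and 88 top peaks in spleen and 92, 92 and 91 in CH12F3. From 25000001 to 50000000 they held 139, 134 and 133 in spleen and 233, 237 and 238 in CH12F3, and all later segments of 25 Mb were lower in every spleen library. Of the 10 kb bins on chromosome 14, 4.06% were called higher and 24.98% lower in spleen, against 10.0% and 13.8% over all chromosomes. In all, 7 chromosomes were higher and 7 lower in spleen without overlap of the groups, with chromosome 10 (5.72 ± 0.08% in spleen, 5.06 ± 0.05% in CH12F3) and chromosome 19 (3.47 ± 0.09% in spleen, 2.86 ± 0.04% in CH12F3) the most different in the other direction.

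**Figure D3:**
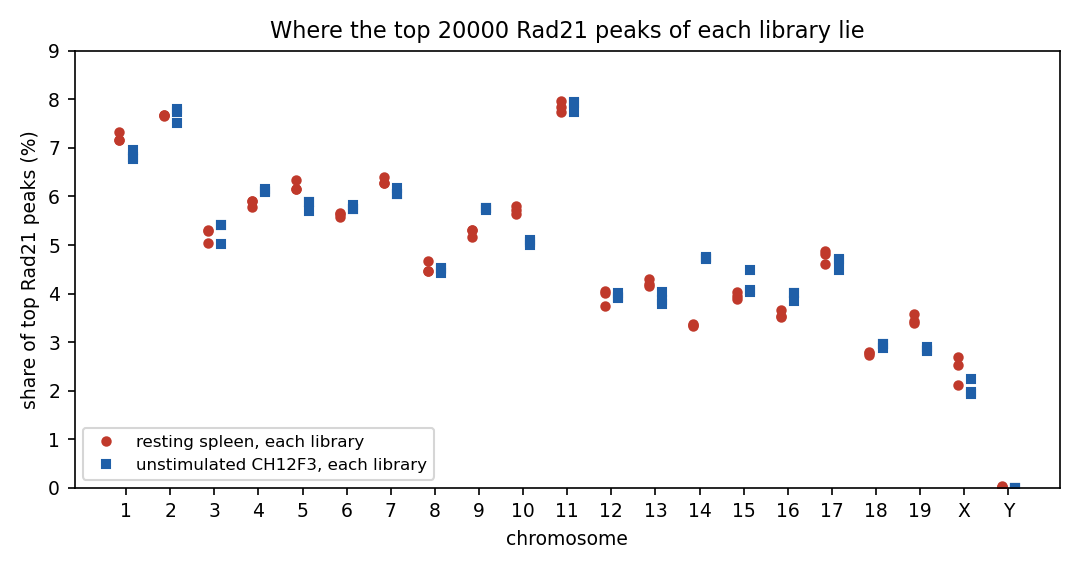
Share of each library's 20000 top Rad21 peaks (y axis, percent) on each mouse chromosome (x axis), one point per library, resting spleen (circles) left of unstimulated CH12F3 (squares). Replicates lie close together and chromosome 14 stands at 3.35% in spleen and 4.73% in CH12F3.

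On chromosome 4 a stretch of 300 kb had no Rad21 peak of any rank in CH12F3. It was found after the values were seen, by searching all 100 kb windows for 3 or fewer deposited NIPBL peaks in each of the 4 CH12F3 NIPBL libraries and 15 or more in each of the 3 resting spleen NIPBL libraries. Of 25388 windows with that many in spleen, 2 met the rule, chr4:88700001-88800000 and chr4:88900001-89000000, and no window met the rule turned round. In chr4:88700001-89000000 the deposited Rad21 lists held 38, 127 and 14 peaks in spleen and 0, 0 and 0 in CH12F3. The 300 kb before it held 45, 171 and 30 Rad21 peaks in spleen and 31, 29 and 56 in CH12F3, and the 300 kb after it 20, 135 and 11 in spleen and 31, 30 and 65 in CH12F3. Stimulated Rad21 lists had 24, 166 and 157 peaks in spleen and 0 in each of the 4 CH12F3 and 3 i3CBEs libraries. NIPBL, which the rule used, had 120, 79 and 110 peaks in resting spleen and 3 and 6 in unstimulated CH12F3. By general knowledge of mm9 the stretch holds Cdkn2a, which encodes the tumour suppressors p16 and p19Arf, and RefSeq (GRCm38.p6) lists Mtap, Cdkn2b and Dmrta1 among its neighbours. DNA content was not measured by these lists, and the input libraries were not analysed here.

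**Figure D4:**
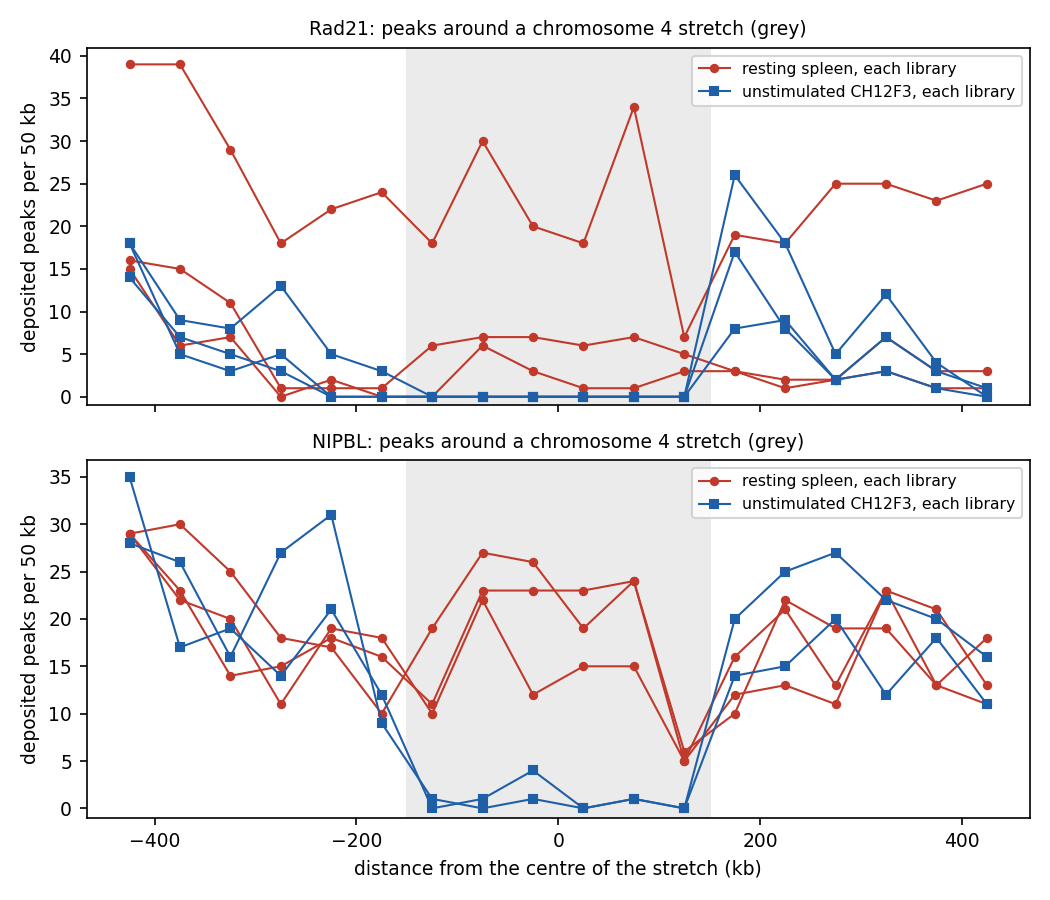
Deposited peaks per 50 kb (y axis) by distance from the centre of the 300 kb stretch on chromosome 4 (x axis, kb; grey band), for Rad21 (top) and NIPBL (bottom), one line per library, resting spleen with circles and unstimulated CH12F3 with squares. CH12F3 Rad21 lines lie at 0 throughout the band, while both flanks hold CH12F3 peaks.

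Top peaks of the 6 libraries merged into 33051 sites. Of these, 2386 had a top peak in all 3 spleen and no CH12F3 library (spleen-only), 3465 in all 3 CH12F3 and no spleen library (CH12F3-only), and 10756 in all 6 (common). Spleen-only sites had a median width of 1011 bases, CH12F3-only sites 469 and common sites 950. A deposited peak of any rank was missing from all 3 lists of the other cell type at 281 spleen-only sites (11.8%) and at 282 CH12F3-only sites (8.14%). Cell-type-restricted sites stood further down their own lists than common ones. The classes rest on a cut by rank, and a site near the cut drops out of other lists more easily, so this order follows in part from the rule. The median rank lay between 11588 and 13023 for spleen-only sites and between 12153 and 12201 for CH12F3-only sites, against 5723 to 6497 for common sites. The spleen-only site of best mean rank was chr2:18909832-18911509, at ranks 1209, 320 and 419 with the authors' fold enrichments of 29.5, 34.9 and 16.7. The best CH12F3-only site was chr16:56920364-56920819, at ranks 137, 83 and 124 with fold enrichments of 32.2, 32.0 and 32.7. Of the 5 best CH12F3-only sites 2 were on chromosome 14, and that chromosome held 1.89% of spleen-only, 7.36% of CH12F3-only and 3.78% of common sites. The top common site, chr2:98506387-98507500, ranked first in every list with fold enrichments of 15308 to 43059, and the 5 best common sites were all of this extreme kind.

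By top peaks, libraries that had no part in defining the classes kept CH12F3-only sites in CH12F3 more fully than spleen-only sites in spleen. Top peaks of stimulated spleen met 35.2 ± 6.18% of spleen-only sites (n = 3), those of stimulated CH12F3 5.04 ± 1.66% (n = 4) and those of i3CBEs 7.38 ± 0.66% (n = 3). For CH12F3-only sites the shares were 39.5 ± 9.95% in stimulated spleen, 90.8 ± 3.84% in stimulated CH12F3 and 83.0 ± 0.93% in i3CBEs. Common sites were met to 95.7 ± 2.34%, 97.2 ± 1.51% and 95.8 ± 0.12% in the same order of groups. Top peaks of stimulated spleen thus met similar shares of both restricted classes. Deposited peaks of any rank in stimulated spleen met 94.6%, 100% and 99.6% of spleen-only and 84.9%, 98.2% and 95.0% of CH12F3-only sites. Those of stimulated CH12F3 met 68.4% to 77.7% of spleen-only sites and 100% of CH12F3-only sites in each library. The contrast in top peaks is therefore one of rank more than of presence in a list. NIPBL top peaks of resting spleen met 25.1 ± 4.58% of spleen-only, 1.44 ± 0.60% of CH12F3-only and 11.8 ± 2.43% of common sites (n = 3). In the 2 unstimulated CH12F3 NIPBL libraries the shares were 16.0% and 6.08% of spleen-only, 6.81% and 1.96% of CH12F3-only and 16.5% and 6.81% of common sites. The shares are descriptions over sites, and stimulated lists were called against other controls.

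**Figure D5:**
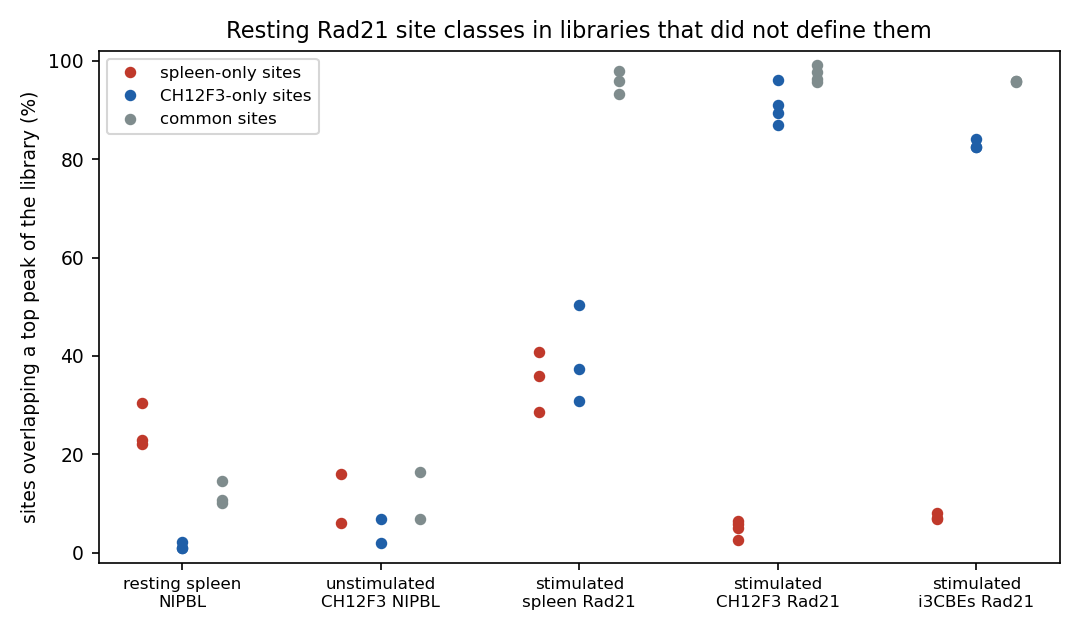
Percent of spleen-only (red), CH12F3-only (blue) and common (grey) Rad21 sites that overlap a top peak (y axis) in libraries that did not define the classes (x axis), one point per library. CH12F3-only sites lie between 87.0% and 96.0% in stimulated CH12F3, and spleen-only sites between 28.6% and 40.9% in stimulated spleen.

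The difference between spleen and CH12F3 was smaller after stimulation at many spleen-higher bins. In stimulated cells 668 of 23000 tested bins (2.90%) were higher and 830 (3.61%) lower in spleen (limma, adjusted p under 0.05), and the groups did not overlap in 8.64% higher and 7.57% lower. Of the 2422 bins higher in resting spleen, only 1190 had enough cover to be tested in stimulated cells, and 1109 of these kept their direction. In stimulated spleen 311 were called higher too (12.8% of the 2422 resting and 46.6% of the stimulated calls) and 1 was called lower. Of the 3332 bins lower in resting spleen, 3294 were tested in stimulated cells and 2772 of these kept their direction. Of the 3332, 593 were called lower again (17.8% of the resting and 71.4% of the stimulated calls) and 1 higher. The 12.8% and 17.8% include untested bins and so cannot be set against each other. The stimulated counts changed with the libraries used. Without stimulated CH12F3 replicates 1, 2 or 3 limma called 0 bins higher (3532, 3650 or 3823 bins in either direction at an unadjusted p under 0.05) and 2, 3 or 3 lower. Without stimulated CH12F3 replicate 4 it called 285 higher, without stimulated spleen replicate 1 1683 higher, and without stimulated spleen replicate 3 295 higher and 17 lower. The change of the difference was tested as an interaction over 27721 bins, and the resting difference stood above the stimulated one in 1083 (3.91%) and below it in 194 (0.700%). Without resting spleen replicate 3 the first count was 2238, and the second was 604 without stimulated spleen replicate 1. Of the resting spleen-higher bins 1066 (44.0%) had a smaller difference after stimulation, and of the resting spleen-lower bins 101 (3.03%), where the same resting libraries entered both the call and this test.

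The Btg1 bin shows the pattern. In stimulated spleen it was covered to 7.12%, 0% and 24.6%, and in stimulated CH12F3 to 8.61%, 2.69%, 0% and 3.83%, and the resting difference exceeded the stimulated one by 77.5 points (limma interaction, adjusted p = 0.00039). The class II bin chr17:34430001-34440000 was covered to 4.74%, 8.18% and 5.64% in stimulated spleen and to 0% in each stimulated CH12F3 list. The whole class II window was covered to 2.86%, 7.93% and 3.76% in stimulated spleen, against 14.4%, 13.3% and 15.5% in resting spleen. The chromosome 1 bin chr1:85240001-85250000 had lower cover in resting spleen, though its short spleen peak ranked high. Its cover was also lower in stimulated spleen (-92.2 points, limma, adjusted p = 0.00015). It was covered to 4.35%, 9.76% and 4.2% in stimulated spleen and to between 95.5% and 100% in stimulated CH12F3. Top peaks of stimulated spleen replicates 1, 2 and 3 had median widths of 309, 647 and 422 bases, against 601, 620 and 352 in resting spleen, and the part of this width in the change was not tested.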

How the data were processed

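NIPBL and Rad21 libraries had been aligned to mm9 with Bowtie2 and peaks called with MACS2, per the submitters' processing notes; no version is named in those notes. Each library has its own list, so replicates were not pooled. The lists are in the broad-peak layout. The authors deposited, per peak, its fold enrichment (a ratio), its -log10 p-value, its -log10 q-value and this last value multiplied by 10 as a score. Here they order, filter and describe the peaks of 1 list at a time. No read counts come with them, so no interval for counting error could be given. The 5 input samples were not analysed here.

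The 20000 strongest peaks by -log10 p were taken per list from the 21 main chromosomes, with fold enrichment and then position breaking ties. The percent of each 10 kb bin or 1 Mb window covered by them was compared in R 4.3.3 by limma 3.58.1, with a mean-variance trend, in the 6 resting libraries, for bins covered in 2 or more, with Benjamini-Hochberg adjustment over all of them. The interaction was fitted over the 13 resting and stimulated libraries of spleen and CH12F3. The limma step was first run on simulated data with known differences. Shares and windows were compared by two-sided exact permutation tests. Sites and overlaps needed 1 shared base. Named are the 12 bins, 5 windows and up to 5 sites per direction or class with the largest differences or best ranks, and the 19 loci; the chromosome 4 stretch, the chromosome 14 segments and single examples were chosen after their values were seen. Members, loci and tests were chosen with earlier results of these data known. Identical starts were shared by at most 0.76% of top peaks between resting libraries, so none was treated as a repeat. Other steps used scipy 1.17.1, pandas 2.3.3, numpy 2.4.6 and matplotlib 3.10.9 under Python 3.11.15. Alternatives changed the number, width and ranking of peaks, the filter, the spread, the fit, the bin size and the libraries.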

Additional observations from a re-analysis of the deposited data

Results flagged for a closer look

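At 9 of the 24 bins named by size, the difference between spleen and CH12F3 changed between resting and stimulated cells by the test of that change itself (limma interaction, adjusted p under 0.05, 13 libraries). All 9 were higher in resting spleen. The bins were named for large resting differences and the same resting libraries enter this test, so it is no independent evidence of a change; over all bins tested the resting difference stood above the stimulated one in 3.91%. The resting difference exceeded the stimulated one by 77.5 points at chr10:96080001-96090000, by 60.5 points at chr11:87560001-87570000, by 56.1 points at chr17:34430001-34440000 and by 44.4 points at chr17:34400001-34410000. It exceeded it by 54.0 points at chr9:44370001-44380000, by 51.2 points at chr9:44380001-44390000, by 53.1 points at chr17:5800001-5810000, by 49.5 points at chr6:48650001-48660000 and by 45.1 points at chr13:112790001-112800000. None of the 12 bins lower in resting spleen changed by this test, and none of the 10 named windows of 1 Mb did.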

How the results depend on the processing

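Counts of called 10 kb bins moved by over 1.5 times in several settings. With 10000 top peaks 1451 bins were higher and 1848 lower in spleen, and with -log10 q of 5 or more 0 and 0 (7621 at an unadjusted p under 0.05). An equal covered length gave 928 higher, all deposited peaks 194 lower, array weights 4786 higher and all Rad21 groups in 1 fit 4467 higher. Leaving out 1 library gave 1126 to 5534 higher and 3090 to 3824 lower; the range of higher bins ends at spleen replicate 3. For windows of 1 Mb, array weights gave 1052 higher, 500 bases about the midpoint 570 lower, an equal covered length 560 lower, all deposited peaks 0 and 0, and -log10 q of 5 or more 0 and 1; leaving out 1 library gave 170 to 971 higher and 160 to 272 lower, 971 being without spleen replicate 3. Stimulated bins gave 533 lower with 10000 top peaks, 8 higher and 19 lower with 40000, and 249 and 430 with an equal covered length; leaving out 1 library gave 0 to 1683 higher and 2 to 885 lower. The resting minus stimulated difference, with alternatives added after seeing the data, gave 279 above and 74 below with 10000 top peaks, 96 below with 40000, and 808 to 2238 above and 91 to 604 below when 1 library was left out.

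Same-numbered spleen and CH12F3 libraries did not deviate together at rest (correlations of 0.034, -0.070 and -0.10) or after stimulation (-0.063, -0.077 and 0.050), so they share only a number. With the replicate block 2332 bins were higher and 3086 lower, and 262 and 195 windows of 1 Mb. For stimulated bins, the block and the loss of CH12F3 replicate 4, which has no partner, gave 0 and 0 by limma (4196 at an unadjusted p under 0.05), against 285 and 776 without that replicate alone.

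Chromosome shares gave 4 chromosomes lower with 40000 top peaks, and 13 higher and 4 lower with all deposited peaks; leaving out 1 library gave 7 to 8 higher and 7 to 9 lower. Loci gave 0 lower windows with all deposited peaks, and 8 to 12 higher and 4 to 5 lower when 1 library was left out. The spleen-only, CH12F3-only and common sites numbered 1401, 1838 and 5052 with 10000 top peaks; 5797 CH12F3-only and 16571 common with 40000; 1484 spleen-only and 1324 common when 50% of a site had to be covered; and 281 and 282 when no deposited peak of the other group was allowed. With 50% of a peak covered, overlap was 67.7% within spleen, 53.6% of spleen peaks in CH12F3, 84.8% within CH12F3 and 61.1% of CH12F3 peaks in spleen. With 40000 top peaks the same shares were 64.9%, 55.0%, 76.8% and 55.4%, with all deposited peaks 29.0%, 18.5%, 49.1% and 45.8%, and with 10000 top peaks 87.2% within CH12F3. Without 1 library the spleen minus CH12F3 difference was 84598 to 597217 peaks, 2.27 to 5.54 Mb and 74.5 to 209 bases of median width.

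Directions that turned: with 500 bases about the midpoint, 3.33 points at chr1:85240001, 0.20 at chr1:85310001, 1.67 at chr1:85280001, 1.47 at chr1:85320001 and 3.33 at chr1:85160001; with 10000 top peaks, -0.0003 at window chrY:2000001, -0.30 for Pax5 and -0.094 for Ebf1; with all deposited peaks, 0.17 at window chr1:137000001, 0.015 for HoxB and 0.065 for H19 and Igf2; with an equal covered length, -0.15 for Pax5 and -0.097 for Ebf1. The cause was not tested. At the 24 named bins, direction and call held in 262 alternative fits, and the call was lost in 122. Bins covered in too few libraries to be tested are not in these counts, which therefore understate the loss. With 10000 top peaks such bins included those at Btg1, Cxcr5 and H2-Ab1. With an equal covered length they included those at Cxcr5 and H2-Ab1. Peak lists without read counts limit all values to what the peak caller passed.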

Other observations

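The i3CBEs libraries share the CH12F3 source label and the 300 kb stretch without Rad21 peaks on chromosome 4, but they differed from the other CH12F3 libraries in the chromosome 1 cluster. Over chr1:85000001-85400000, top Rad21 peaks covered 1.84%, 3.17% and 3.47% in the 3 i3CBEs libraries and between 23.1% and 26.7% in the 4 stimulated CH12F3 libraries that share their treatment. Resting spleen lay at 6.18% to 8.18% and resting CH12F3 at 16.0% to 30.3%. At chr8:125950001-125960000, the 3 i3CBEs libraries had 19.0%, 18.4% and 17.6% cover, and stimulated CH12F3 had 44.3%, 23.6%, 26.1% and 0%. The i3CBEs lists were called against a control of their own, and this difference was not tested.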
